A study of Mus musculus with 24 samples.

Results

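The genes described here are the 148 protein-coding genes whose transcripts were lowest, relative to rest, after a brief depolarization of mouse cortical neurons at day 7 in vitro (DIV7). They were chosen from the deposited transcript counts of 4 DIV7 libraries. Counts were summed per gene and scaled to a library total of 1000000 (CPM). The 10757 protein-coding genes at 5 CPM or more in both resting libraries were ranked by log2((mean CPM after KCl + 1)/(mean CPM at rest + 1)), called the DIV7 ratio below. The 150 lowest were taken. Of these, 2 genes (Txnip and Arrdc3) were set aside by name, since the rule leaves out Txnip and the Arrdc, Hes and Mbd families. The 148 members are 1.38% of the ranked genes. The DIV7 contrast therefore chose the members, and every DIV7 value below is a description without a test.

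The study cultured neurons from the cortex of embryonic day 16.5 mice, with the cortex of each embryo counted as a biological replicate, and asked about the neuronal BAF chromatin remodelling complex and its subunit Smarcc2. DIV7 neurons came from wild-type mice and received 0.1% DMSO in both states, with 2 libraries at rest and 2 after 50 mM KCl for 30 min, made from poly(A) RNA. DIV18 libraries were made from total RNA after ribosomal RNA depletion. They came from neurons with a non-targeting guide RNA (NT, 2 at rest and 2 after KCl), Smarcc2 knockout plus empty vector (KOvec, 3 and 3), knockout plus wild-type Smarcc2 (KOwt, 2 and 3), knockout plus the serine-to-glutamate form S586E (KOS586E, 3 at rest) and knockout plus the serine-to-alanine form S586A (KOS586A, 2 after KCl). All cultures were silenced overnight with 1 µM tetrodotoxin, which blocks sodium channels, and 100 µM D-AP5, which blocks NMDA receptors, before KCl opened voltage-gated channels by depolarization.

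The DIV7 libraries held 24536056 to 30135576 counts and the DIV18 libraries 14510199 to 24024959. Fos, the classical immediate-early gene, was at 3.67 and 4.52 CPM at rest and at 587 and 605 CPM after KCl at DIV7. At DIV18 it rose by 3.90 on the log2 scale over the NT, KOvec and KOwt cultures (edgeR quasi-likelihood test, Benjamini-Hochberg adjusted p = 4.13e-06). In those cultures it was at 4.53 to 8.58 CPM at rest and 33.1 to 205 CPM after KCl, a smaller rise than at DIV7. Smarcc2 transcript was at 239 to 272 CPM in NT and at 45.6 to 63.4 CPM in KOvec libraries, so knockout cultures kept some transcript, and at 750 to 1103 CPM in KOwt libraries, above the NT level. The 10 neuronal markers summed to 4126 to 4364 CPM in the DIV7 libraries. Glial and progenitor markers were also present at DIV7: 9 astrocyte markers summed to 544 to 662 CPM and 11 progenitor markers to 287 to 311 CPM, with both sums lower after KCl (544 and 557 CPM for astrocytes, 287 and 304 CPM for progenitors) than at rest (592 and 662 CPM, 305 and 311 CPM). No member is on any of the 6 marker lists, and the part of these cells in the DIV7 differences was not tested. In such bulk cultures fewer cells of a type and less RNA per cell cannot be told apart.

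Zinc finger proteins of the C2H2 type read DNA with repeated fingers, each folded around a zinc ion held by a pair of cysteines and a pair of histidines. Many carry a KRAB box near their N terminus, which recruits the corepressor TRIM28, and most of those genes lie in clusters of related copies. Their mRNAs are known as short-lived in many cell types. Retained-intron transcripts are polyadenylated RNAs in which an intron has not been removed. Many of them stay in the nucleus, and in neurons a pool of them is known to be spliced after stimulation.

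The C2H2 class made up the largest group found among the members. Scanned in the coding sequence of the most abundant coding transcript, at least 3 finger motifs (the spacing of the cysteines and histidines) were present in 61 of the 148 members, or 41.2%, against 413 of all 10757 ranked genes, or 3.84%. The reading frame of the first finger in 6 of the members with the lowest DIV7 ratios is shown because these codons define the class. Capitals mark the cysteine (TGT or TGC) and histidine (CAT or CAC) codons, read from the GENCODE M21 transcripts.
A430033K04Rik: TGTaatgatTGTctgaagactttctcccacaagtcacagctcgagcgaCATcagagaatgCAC
Gm12258: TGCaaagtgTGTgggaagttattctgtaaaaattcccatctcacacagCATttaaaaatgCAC
Zfp128: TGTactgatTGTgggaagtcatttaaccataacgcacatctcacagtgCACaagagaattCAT
Zfp72: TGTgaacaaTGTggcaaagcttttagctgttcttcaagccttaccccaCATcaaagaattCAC
Zfp87: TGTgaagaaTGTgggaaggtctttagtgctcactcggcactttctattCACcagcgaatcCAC
Insm1: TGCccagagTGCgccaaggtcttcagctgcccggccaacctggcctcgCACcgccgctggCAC

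In these 6 stretches 6 bases lie between the cysteine codons, 36 between the cysteine and histidine pairs and 9 between the histidine codons. The same spacing was found in the first finger of 56 of the 60 C2H2 members for which it was read. The histidine codons were 12 bases apart in 2 others, 2610008E11Rik and Zfp280b, and the cysteine codons 12 bases apart in 2 more, Plagl2 and Klf11. The coding sequence of A430033K04Rik carried 8 such motifs, Gm12258 8, Zfp128 7, Zfp72 11, Zfp87 15 and Insm1 4.

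Over all 148 members the DIV7 ratio ran from -2.36 (Spaca6) to -0.94 (Gm28035) with a median of -1.12, while the median of all ranked genes was -0.06. In 117 members it was below -1 and in 21 below -1.5. Mean CPM after KCl was 13.1% to 50.9% of the resting mean. Both KCl libraries were below both resting libraries in all 148 members, as they were in 44.2% of all ranked genes. The limit of 150 cut through a continuous range: the last members inside were Zfp781 (-0.94) and Gm28035 (-0.94), and the first genes outside were Gm3002 (-0.94) and the transporter gene Abcc5 (-0.94).

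Most members were expressed at low levels. The resting mean ran from 5.17 to 632 CPM with a median of 14.4, against 40.1 over all ranked genes, and 97 of the 148 lay under 20 CPM. Only 2 members exceeded 100 CPM. Flna, which encodes the actin crosslinker filamin A, was at 651 and 612 CPM at rest and at 308 and 309.8 CPM after KCl. Mycn, a Myc-family transcription factor of growing and dividing cells, was at 139.7 and 155 CPM at rest and at 33.4 and 35.5 CPM after KCl, a DIV7 ratio of -2.06.

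The lowest ratio belonged to Spaca6, known as a sperm membrane gene needed for fertilization, at 14.2 and 11.1 CPM at rest and 1.70 and 1.62 CPM after KCl. Zcchc3, whose single-exon transcript encodes a zinc knuckle protein of nucleic acid sensing, was at 14.4 and 15.2 CPM at rest and 2.69 and 2.85 CPM after KCl. Rbm24, an RNA-binding splicing regulator of muscle, was at 16.4 and 20.3 CPM at rest and 3.72 and 4.10 CPM after KCl. In each of these genes the replicates lay close together and far from the other state. Col15a1, a basement membrane collagen, was at 13.04 and 12.9 CPM at rest and 2.79 and 3.92 CPM after KCl. Miip, described as an inhibitor of cell migration, was at 13.7 and 12.9 CPM at rest and 2.97 and 3.35 CPM after KCl.

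The other genes among the 15 lowest, apart from Gm14391, were C2H2 genes. Insm1, a zinc finger factor of neuronal and endocrine progenitors, was at 25.8 and 26.2 CPM at rest and 7.49 and 6.37 CPM after KCl. Zfp128 was at 13.7 and 14.1 CPM at rest and 3.35 and 2.89 CPM after KCl. Zscan2, with 14 finger motifs, was at 14.03 and 13.99 CPM at rest and 2.83 and 3.51 CPM after KCl. The others showed the same separation of states. Zfp72 was at 8.15 and 8.48 CPM at rest and 1.74 and 1.497 CPM after KCl. Zfp87 was at 20.3 and 18.6 CPM at rest and 4.97 and 4.60 CPM after KCl. A430033K04Rik was at 16.3 and 14.1 CPM at rest and 3.22 and 2.55 CPM after KCl. The remaining genes had higher levels. Gm12258 was at 41.4 and 38.2 CPM at rest and 10.9 and 9.59 CPM after KCl, and 2610008E11Rik at 40.8 and 40.4 CPM at rest and 10.1 and 11.7 CPM after KCl.

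**Figure D1:**
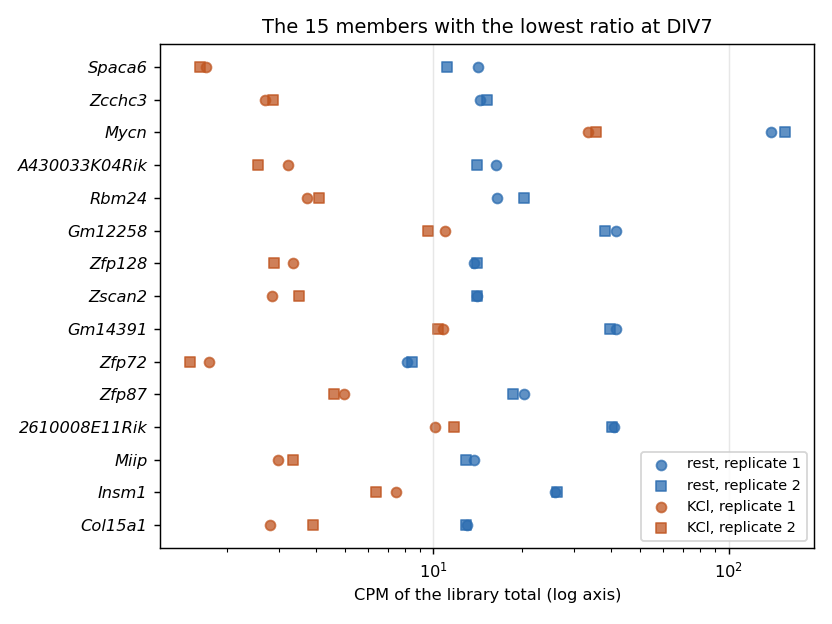
Level of the 15 members with the lowest DIV7 ratio (rows) in CPM of the library total on a log axis; blue marks the 2 resting and orange the 2 KCl libraries, with circles for replicate 1 and squares for replicate 2. Mycn lies at 139.7 and 155 CPM at rest and 33.4 and 35.5 CPM after KCl, and in every row the orange marks lie left of the blue ones.

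The 61 C2H2 members split almost evenly by the KRAB box, which 31 carried and 30 lacked. As a share of all ranked genes of each kind, members were 31 of 120 C2H2 genes with a KRAB box (25.8%) and 30 of 293 without (10.2%). The whole class lay low at DIV7: its median ratio was -0.37, with 354 of 413 genes below 0, and the median was -0.58 in genes with a KRAB box and -0.31 in those without. Over all ranked genes 6919 of 10757 were below 0. The ratio was lower with more fingers. Its median was -0.20 in the 102 genes with 3 to 5 motifs, -0.37 in the 102 with 6 to 9, -0.42 in the 115 with 10 to 13 and -0.57 in the 94 with 14 or more, and members were 4, 13, 23 and 21 of these genes. The Spearman correlation between motif number and ratio across the 413 genes was -0.31, given as a description because genes of this class share sequence and family history. Reads of near-identical zinc finger copies may have been divided between genes by the counting, so the values of single members of a cluster are uncertain.

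**Figure D2:**
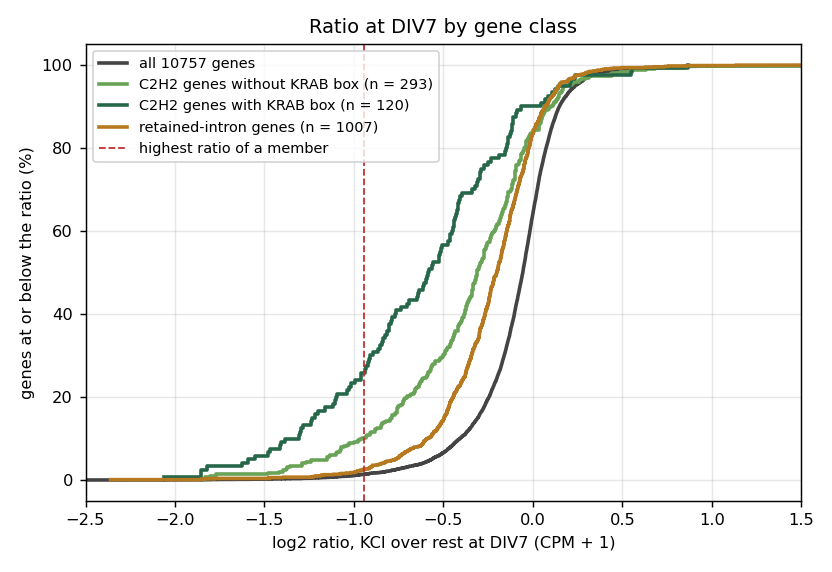
Cumulative share (%) of genes at or below each DIV7 log2 ratio (CPM + 1) for all ranked genes, C2H2 genes with and without a KRAB box, and genes with at least 20% of resting counts in retained-intron transcripts; the dashed line marks the highest ratio of a member, -0.94. At or below that line 25.8% of the C2H2 genes with a KRAB box and 10.2% of those without are members, against 1.38% of all ranked genes that are members.

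Many C2H2 members lay near each other in the genome. Positions are those of GENCODE M21 on GRCm38. On chr13:67038596-67827002 there were 6 members (Zfp712, Zfp759, Zfp58, Zfp87, Zfp748 and Zfp273), and all 13 ranked genes of that stretch were C2H2 genes with a ratio below 0 and a median of -0.64. On chr7:12415153-12909083 there were 4 (Zfp551, Zfp606, Zfp128 and Zscan22), where all 6 C2H2 genes were below 0 with a median of -1.14 while the other 2 ranked genes of the stretch had a median of 0.22. On chr17:32036100-33255145 the 4 C2H2 members Zfp799, Zfp763, Zfp563 and Zfp955a lay among 8 C2H2 genes, all below 0 with a median of -0.93, and the 6 other ranked genes there had a median of -0.06. On chr10:81649059-82153065, with 3 members, the 5 C2H2 genes had a median of -0.77 and the 2 other ranked genes one of -0.87. Those 2 include the member Zfp781 (-0.94), a zinc finger gene by symbol with fewer than 3 motifs in the scan. They therefore do not compare zinc finger genes with other genes. In the clusters on chromosomes 15 and 5, with 4 members each, the C2H2 medians were -0.48 and -0.85 and those of the other genes -0.15 and -0.10. Zfp763 illustrates the levels, at 24.1 and 22.7 CPM at rest and 8.17 and 8.20 CPM after KCl. Chromosome 7 carried 21 members, 14.2% of them, against 7.46% of all ranked genes.

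A sequence recurred in promoters of the C2H2 members. RefSeq promoter windows (GRCm38.p6, 250 bases before and 50 after the transcription start) were found by symbol for 124 members and lay within 500 bases of the start of the most abundant transcript for 115. Of 13 motifs searched on both strands, the element bound by the zinc finger factor ZNF143 was present in 15 of 49 C2H2 members (30.6%), in 44 of 304 C2H2 genes (14.5%) and in 387 of all 7929 ranked genes with a window (4.88%). The DIV7 ratio had a median of -0.58 in the 44 C2H2 genes with the motif and -0.37 in the 260 without it. Outside the class the medians were -0.06 in 343 genes with it and -0.05 in 7282 without it, and 1 member there, Alkbh4, carried it. These medians come from the contrast that chose the members and were not tested. The match is a description of letters, not of binding. The windows around the match in the 8 members with the lowest ratios are shown because the element is what these promoters have in common. They are written in the direction of the motif, with 20 bases on either side and the motif in capitals.
Zfp128 (chr7:12881142-12881193, gene on the plus strand): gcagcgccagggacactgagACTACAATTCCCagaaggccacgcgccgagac
Zfp72 (chr13:74390851-74390902, gene on the minus strand): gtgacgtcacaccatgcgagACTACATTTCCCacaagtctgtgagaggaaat
Zfp60 (chr7:27731324-27731375, gene on the plus strand): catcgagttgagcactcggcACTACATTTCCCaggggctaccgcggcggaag
Zfp111 (chr7:24208182-24208233, gene on the minus strand): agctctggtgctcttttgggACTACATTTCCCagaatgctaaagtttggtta
Zfp712 (chr13:67061195-67061246, gene on the minus strand): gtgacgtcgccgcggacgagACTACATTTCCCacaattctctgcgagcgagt
Zscan22 (chr7:12897670-12897721, gene on the plus strand): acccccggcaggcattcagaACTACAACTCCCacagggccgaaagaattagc
Zfp189 (chr4:49521134-49521185, gene on the plus strand): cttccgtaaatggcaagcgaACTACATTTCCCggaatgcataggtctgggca
Zfp84 (chr7:29768509-29768560, gene on the plus strand): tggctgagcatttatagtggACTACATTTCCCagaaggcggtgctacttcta

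The 16 members with the motif held 17 matches, all upstream of the start, with centres from -118 to -10 bases and a median of -47. The motif faced against the gene in 11 of the 16. Over the 115 members the ZNF143 element was present in 13.9%, against 4.88% of all windows. Of the other promoter elements some lay above, some below and some near the share over all genes. The AP-1 site TGANTCA was present in 8 of 115 members (6.96%) and in 3.75% of all windows. The cAMP response element TGACGTCA was present in 2 of 115 members (1.74%) and in 3.76% of all windows. Both counts are small. The E-box (9.57% against 11.1%), the TATA box (5.22% against 5.74%) and the NRF1 element (2.61% against 2.45%) lay near the share over all windows. The GC box GGGCGG was present in 54.8% of members, 54.3% of C2H2 genes and 70.5% of all windows. CCAAT was present in 52.2%, 44.1% and 39.1%. Member windows were also poorer in CpG, with a median of 17 CpG dinucleotides and 11 in C2H2 members, against 23 over all genes. The median over all C2H2 genes was 17.

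A second group of members was defined by the kind of transcript counted. In 26 of the 148 members (17.6%), against 1007 of all ranked genes (9.36%), at least 20% of resting counts fell in transcripts annotated as retained introns, and 4 of the 26 were also C2H2 genes. The 20% limit was chosen after the values were seen. Retained-intron counts took 3.94% and 3.91% of protein-coding gene counts in the resting DIV7 libraries and 2.75% and 2.72% in the KCl libraries. This shift ran through many genes: in the 1007 genes the median log2 ratio of the retained-intron transcripts was -0.51, with 868 below 0, and that of the coding transcripts was -0.01.

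In the 26 members the retained-intron transcripts were lower after KCl in all 26, with a median log2 ratio of -1.54, and the coding transcripts in 20, with a median of -0.70. Gm14391, a predicted gene, was at 34.2 and 32.3 CPM of retained-intron counts at rest and 3.48 and 4.44 CPM after KCl. Its coding transcripts were at 7.30 and 7.30 CPM at rest and 7.31 and 5.89 CPM after KCl, so the states overlapped. Spaca6 had 87.5% of its resting counts in such transcripts and Miip 80.8%. In Hps1, a subunit of a complex for lysosome-related organelles, retained-intron counts were at 13.8 and 13.4 CPM at rest and 2.60 and 1.60 CPM after KCl, and coding counts at 8.27 and 6.96 CPM at rest and 8.86 and 6.69 CPM after KCl. Recql5, a DNA helicase, had retained-intron counts of 8.65 and 7.95 CPM at rest and 0.64 and 1.17 CPM after KCl, with coding counts of 6.87 and 6.63 CPM at rest and 7.55 and 7.09 CPM after KCl. Coding transcripts were above 0 in ratio in 6 of the 26 (Recql5, Dgkq, Rrp1b, Hps1, Ankrd16 and Fbxl6). Others were lower in both kinds. Zfp128 had retained-intron counts of 5.22 and 5.41 CPM at rest and 1.00 and 0.74 CPM after KCl, and coding counts of 8.53 and 8.65 CPM at rest and 2.35 and 2.15 CPM after KCl. Hps1 and Recql5 were chosen after their values were seen. When only protein-coding transcripts were counted, 141 of the 148 members had a ratio below 0 and 136 one below -0.5. These counts were largely set by the rule: they use the libraries that chose the members, and 122 of the 148 lay outside the retained-intron group.

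**Figure D3:**
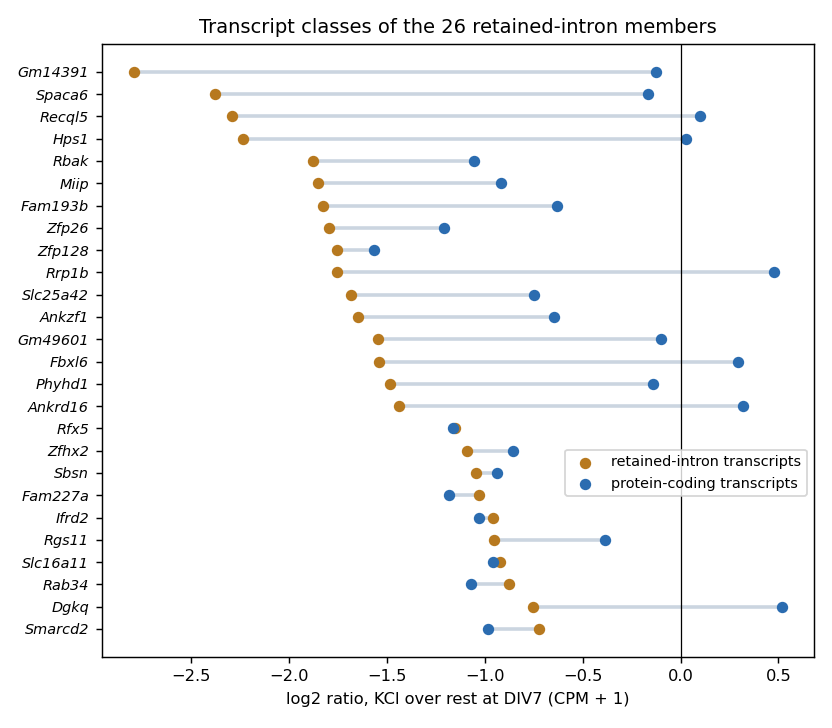
DIV7 log2 ratio (CPM + 1) of the retained-intron transcripts (brown) and the protein-coding transcripts (blue) of each of the 26 members with at least 20% of resting counts in retained-intron transcripts. All brown points lie below 0, and 6 blue points lie above 0.

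The remaining 65 members belonged to neither class and were spread over many functions. Of 20 gene families defined by symbol, 7 held a member and 13 held none. Among the 13 were ion channels (139 ranked genes), cadherins (79), ribosomal proteins (89) and oxidative phosphorylation subunits (96). Members were 1.38% of all ranked genes, so families of these sizes would hold few or none at that share. Zinc finger factors by symbol held 53 of 374 genes, and the coding-sequence scan added 11 members not named by symbol, including Insm1, Hic2 and the PLAG-family gene Plagl2. The bHLH family held both Mycn and Myc of 18 genes. Myc, the growth-promoting partner of Max, was at 26.04 and 24.8 CPM at rest and 9.72 and 10.6 CPM after KCl. The homeobox family held 1 of 25 genes, the large zinc finger homeobox gene Zfhx2, at 68.1 and 66.7 CPM at rest and 34.2 and 34.5 CPM after KCl. The nuclear receptors held 1 of 25, the retinoic acid receptor Rarg, at 10.4 and 9.41 CPM at rest and 4.25 and 4.24 CPM after KCl.

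Solute carriers held 5 of 196 genes. They were the monocarboxylate carrier family members Slc16a11 (ratio -1.24), Slc16a9 (-1.05) and Slc16a6 (-0.995), the copper carrier Slc31a2 (-1.18) and the mitochondrial coenzyme A carrier Slc25a42 (-1.17). G-protein coupled receptors held 2 of 73, the beta-1 adrenergic receptor Adrb1 at 10.7 and 10.1 CPM at rest and 5.16 and 4.33 CPM after KCl, and the brain receptor Gpr139 at 6.63 and 8.07 CPM at rest and 3.12 and 3.35 CPM after KCl. Ubiquitin ligase proteins held 3 of 207, the F-box genes Fbxl12 (-1.20) and Fbxl6 (-0.97) and the RING finger gene Rnf169 (-1.01). These shares of 2.55%, 2.74% and 1.45% lay near the 1.38% of all ranked genes that are members. A list of 36 energy and growth response genes had 30 measured, none of them a member, with a median ratio of 0.10.

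Some single members, chosen after their values were seen, encode regulators with known roles in growth and signalling. Dvl2, a cytoplasmic relay of Wnt signals, was at 23.2 and 21.9 CPM at rest and 6.28 and 6.56 CPM after KCl. Skp2, the F-box subunit that marks the cell-cycle inhibitor p27 for degradation, was at 13.2 and 14.9 CPM at rest and 4.21 and 3.88 CPM after KCl. Ccnt2, a cyclin of the elongation kinase P-TEFb, was at 79.2 and 73.7 CPM at rest and 35.3 and 32.4 CPM after KCl. The states did not overlap in any of these. The aryl hydrocarbon receptor Ahr was at 10.6 and 10.0 CPM at rest and 4.28 and 4.34 CPM after KCl. Smarcd2, which like Smarcc2 encodes a BAF subunit, was at 10.96 and 10.97 CPM at rest and 4.70 and 5.10 CPM after KCl.

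Member mRNAs were of middling length. The median mRNA length, weighted by the resting counts of each transcript, was 3399.8 bases, with quartiles of 2608 and 4210, against 3087 over all ranked genes, with quartiles of 2009 and 4569. Few members were short: 2.70% were under 1500 bases, against 13.5% of all genes, and 17.6% were over 5000 bases, against 19.9%. The median coding sequence was 1564 bases against 1366, and the median 3′ untranslated region 1418 against 1179. The count of AUUUA elements, which recruit RNA decay factors, had a median of 1.36 per kb of 3′ untranslated region against 1.33, and 68.9% of members had at least 1 against 61.7%. The classes differed in this: C2H2 members had a median of 1.94 per kb and 80.3% with at least 1, and retained-intron members a median of 0.012 per kb and 30.8% with at least 1. All C2H2 genes had a median of 1.79 per kb and 74.3% with at least 1, and all retained-intron genes 0.83 per kb and 42.9%. Gene structure differed more than length. Members had a median of 4.12 exons per transcript against 8.71 over all genes, and a median gene span of 15900 bases against 27198. C2H2 genes as a class had a median of 4.84 exons, the 65 members of neither class 4.68 and retained-intron members 7.64, nearer to all genes. Retained-intron members also had the shortest median length of the 3 classes, 2861 bases, and held all 4 members under 1500 bases. The median over all 1007 retained-intron genes was 2487 bases. Across all ranked genes the Spearman correlation of length with the DIV7 ratio was 0.10 and that of exon number 0.17, both descriptions over genes that are not independent.

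**Figure D4:**
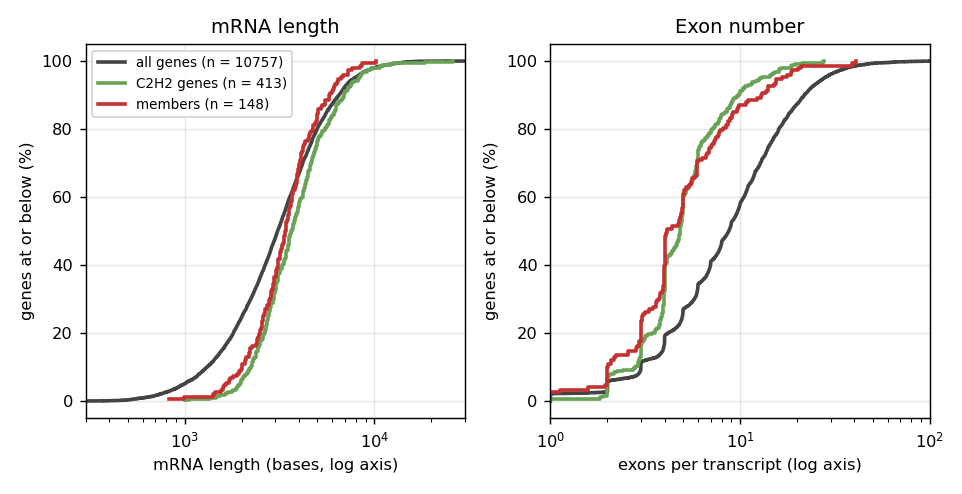
Cumulative share (%) of genes by mRNA length in bases (left, log axis) and by exons per transcript (right, log axis) for all ranked genes, C2H2 genes and members. Members have few short mRNAs, so their length curve starts right of that of all genes and crosses it above the medians (3399.8 and 3087 bases), and the exon curve of members lies left of that of all genes (medians 4.12 and 8.71).

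At DIV18 the lower levels after KCl were not found again. On the scale of the DIV7 ratio the members' median was -0.03 in NT, 0.10 in KOvec and 0.09 in KOwt cultures, against -0.04, 0.06 and 0.04 over all ranked genes. None of the 148 reached the limit of the rule in any of the 3 cultures. Of all 10757 ranked genes only 5 did in NT, 6 in KOvec and 1 in KOwt. The lowest ratio of a member was -0.54 in NT, -0.49 in KOvec and -0.35 in KOwt. Low ratios were rarer at DIV18 over all ranked genes, with 713 below -0.5 at DIV7 and 101, 57 and 9 in NT, KOvec and KOwt. A ratio below 0 in all 3 cultures was seen in 11 members (7.43%), against 9.84% of all ranked genes. Across members the DIV7 ratio and the mean DIV18 ratio had a Pearson correlation of 0.02, a description over genes that were chosen at a single end of the DIV7 range. Age, RNA selection, DMSO and the guide RNA constructs differed between DIV7 and DIV18 together and cannot be told apart. The rise of Fos after KCl was also smaller at DIV18, and the part of a weaker response in these values was not tested.

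**Figure D5:**
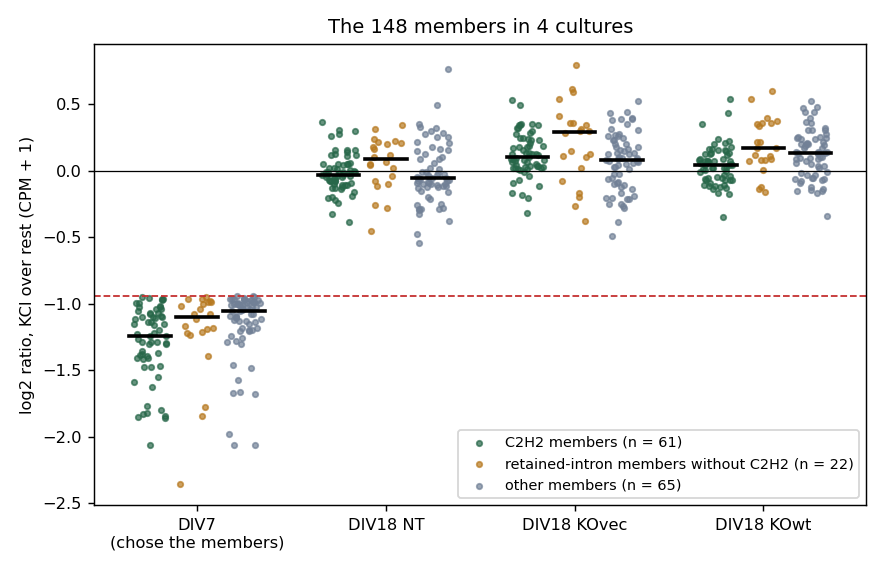
Log2 ratio of KCl over rest (CPM + 1) of each member at DIV7, which chose the members, and in the NT, KOvec and KOwt cultures at DIV18, with the 4 retained-intron members that are also C2H2 genes drawn as C2H2; black bars are medians of each class, and the dashed line marks the highest ratio of a member at DIV7, -0.94. No DIV18 point lies at or below the dashed line, which 5, 6 and 1 of the 10757 ranked genes (not drawn) reached in NT, KOvec and KOwt.

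All 148 members passed the filter on low counts at DIV18, where 121 were at 5 CPM or more in resting NT neurons. In edgeR's quasi-likelihood test of the KCl response averaged over NT, KOvec and KOwt, with Benjamini-Hochberg adjustment over 20940 genes, 0 members were called lower (0.0812% of all genes tested) and 2 higher (0.368%). At an unadjusted p under 0.05, 4 were lower (2.7%, against 3.41% of all genes tested) and 21 higher (14.2% against 4.53%). DESeq2 called 0 members lower and 6 higher, and 27 and 119 of all genes. The median change was 0.03 on the log2 scale, against -0.00 over all genes tested. The 95% interval of the change lay above -0.5 in 141 members (95.3%), against 96.6% of the 10750 ranked genes tested and 69.8% of all genes tested. It lay above the member's own DIV7 ratio in 147, the exception being Gm28035, with a change of 0.03 and an interval from -1.05 to 1.12. The DIV7 ratio is on another scale (CPM of the library total, + 1). It was picked as an extreme, and its own error was not counted. Mycn had a change of 0.12 (interval -0.11 to 0.35), and its level had a median of 8.49 CPM in the 7 resting and 8.78 CPM in the 8 KCl libraries, against 139.7 and 155 CPM in the resting DIV7 libraries, which were made by another RNA selection. Zfp128 had a change of 0.11 (-0.08 to 0.29) and Insm1 one of 0.02 (-0.42 to 0.47). The 61 C2H2 members had a median of 0.02, with 0 called. At an unadjusted p under 0.05, 1 was lower and 3 higher (1.64% and 4.92%), near the shares of all genes.

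The 2 members called were both of the retained-intron group. Rab34, a small GTPase of lysosome positioning and cilia, was 0.39 higher (SE 0.08, edgeR adjusted p = 0.0255). It was at 9.85 and 9.54 CPM in resting NT, 6.68, 7.44 and 8.09 CPM in resting KOvec and 8.82 and 10.3 CPM in resting KOwt libraries. After KCl it was at 12.3 and 10.3 CPM in NT, 11.01, 10.6 and 11.9 CPM in KOvec and 11.6, 12.8 and 12.1 CPM in KOwt libraries. Within each culture the KCl libraries lay above the resting ones. At DIV7 Rab34 had gone the other way, from 25.1 and 24.5 CPM to 11.1 and 11.4 CPM. Fam193b, a gene with little known function, was 0.32 higher (SE 0.07, adjusted p = 0.0455). Its resting libraries ran from 25.01 to 34.5 CPM with a median of 29.0, and its KCl libraries from 32.6 to 43.5 CPM with a median of 36.6, and within cultures the states overlapped in KOvec alone. The call of Rab34 was kept in 12 of 21 alternatives (adjusted p 0.00551 to 0.155) and that of Fam193b in 5 of 21 (0.00311 to 0.223), and leaving out 1 of the 15 libraries ended the call in 7 and 13 cases. Over the 26 retained-intron members the median change was 0.14, and 10 were higher (38.5%) and 1 lower (3.85%) at an unadjusted p under 0.05. Retained-intron transcripts were also higher over the 1007 genes of that kind in KOvec and KOwt, with medians of 0.09 and 0.16 on the scale of the DIV7 ratio, against 0.12 and 0.14 in the members. In NT the medians were 0.01 and 0.08. Coding transcripts of the same genes had medians of 0.13 in KOvec and 0.03 in KOwt over the 1007 genes. In the members these coding medians were 0.16 and 0.19, so the higher values were not particular to retained-intron transcripts. In NT the coding medians were -0.04 over the 1007 genes and 0.03 in the members. Glial marker genes moved the other way in the same contrast, with a median of -0.30 over 9 astrocyte and -0.23 over 11 progenitor markers, none of them called, and their part in these values was not tested.

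In 6 members (Miip, Ccnt2, Rab34, Ankzf1, Alkbh4 and Rgs11) every KCl library lay above every resting library in each of the 3 cultures, as in 0.626% of all genes tested, and in 0 members did they lie below (0.363%).

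In the single cultures 0 members were called in either direction in NT (0.0% of all genes lower and 0.00955% higher), in KOvec (0.00955% and 0.0621%) and in KOwt (0.00478% and 0.0382%). Fos itself was not called in NT, with a rise of 3.36 (edgeR adjusted p = 0.0912), so large changes could go uncalled there. It was called in KOvec and KOwt (adjusted p = 0.00329 and 0.00567). DESeq2 called 0 members in NT and KOwt and 2 higher in KOvec. Unadjusted p-values under 0.05 were reached by 1 lower and 11 higher in NT (1.92% and 2.41% of all genes), 5 and 16 in KOvec (4.88% and 5.47%) and 0 and 10 in KOwt (2.03% and 2.93%). As shares of the members these were 0.676% and 7.43%, 3.38% and 10.8%, and 0.0% and 6.76%. The response of KOvec against NT differed in 0 members (0.0% of all genes in either direction), also by DESeq2, with 6 lower and 2 higher at an unadjusted p under 0.05 (4.05% and 1.35%, against 4.43% and 4.38% of all genes).

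Loss of Smarcc2 left most members without a call. At rest 0 members were lower in KOvec than NT (3.77% of all genes tested were) and 3 were higher (2.13%). DESeq2 called 1 lower and 4 higher, and at an unadjusted p under 0.05 7 were lower (4.73%, against 11.4% of all genes) and 19 higher (12.8% against 8.92%). Adamts15, a secreted protease of the extracellular matrix, was 1.08 higher (SE 0.27, edgeR adjusted p = 0.0235), at 8.24 and 10.8 CPM in NT and 27.0, 20.6 and 12.5 CPM in KOvec. A430033K04Rik, the KRAB zinc finger gene shown above, was 0.56 higher (SE 0.14, adjusted p = 0.0245), at 12.1 and 11.01 CPM in NT and 18.7, 18.2 and 14.1 CPM in KOvec. Mex3b, an RNA-binding ubiquitin ligase, was 0.54 higher (SE 0.14, adjusted p = 0.0277), at 15.9 and 16.2 CPM in NT and 23.6, 21.6 and 24.6 CPM in KOvec. In all 3 genes every KOvec library lay above both NT libraries. Each call was kept in only 1 of the 5 fits that left out a library, without the third KOvec library for Adamts15 and A430033K04Rik and without the second for Mex3b. In the other fits the adjusted p was up to 0.170, 0.330 and 0.237.

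After KCl 0 members were lower in KOvec than NT (1.95% of all genes were) and Adamts15 alone was higher (0.726% of all genes were), by 1.15 (SE 0.27, adjusted p = 0.0308), at 8.72 and 9.50 CPM in NT and 18.5, 23.1 and 19.2 CPM in KOvec. Leaving out any 1 of these 5 libraries ended that call, with an adjusted p of up to 0.261. A430033K04Rik (-0.05) and Mex3b (-0.05) were not called there. DESeq2 called 1 lower and 2 higher, and at an unadjusted p under 0.05 3 were lower (2.03%, against 9.58% of all genes) and 19 higher (12.8% against 6.97%). The median over all members was 0.10 at rest and 0.09 after KCl, against 0.02 over all genes in both. It was 0.03 at rest without the first NT library. After KCl it was 0.13 without the second KOvec library and 0.06 with length offsets. Of the 61 C2H2 members 12 at rest (19.7%) and 14 after KCl (23.0%) were higher at an unadjusted p under 0.05, with 0 lower. The class as a whole had 12.8% and 18.9% of its 413 genes higher, and all genes 8.92% and 6.97%. Glial markers summed lower in KOvec, with 2 of 9 astrocyte, 2 of 11 progenitor and 4 of 8 oligodendrocyte lineage markers called lower at rest. The 9 astrocyte markers summed to 1665 and 1810 CPM in resting NT and to 945 to 1363 CPM in resting KOvec libraries, 11 progenitor markers to 224 and 247 CPM and to 62.97 to 169 CPM, and 8 oligodendrocyte lineage markers to 195 and 209 CPM and to 133 to 151 CPM. Neuronal markers summed to 5045 and 5090 CPM and to 4769 to 5360 CPM. The part of this difference in the members' values was not tested.

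Returning wild-type Smarcc2 to the knockout neurons left 0 members called at rest (0.00955% of all genes lower and 0.00478% higher) and after KCl (0.00478% in each direction). DESeq2 also called 0. At an unadjusted p under 0.05, 5 members were lower and 3 higher at rest (3.38% and 2.03%, against 5.19% and 5.87% of all genes), and 3 were lower and 0 higher after KCl (2.03% and 0.0%, against 1.8% and 2.19%). Of the phosphosite forms, S586E against wild type at rest and S586A against wild type after KCl gave 0 members and 0.0% of all genes in either direction. DESeq2 called 1 member higher with S586E and 0 with S586A. Unadjusted, 8 members were lower and 6 higher with S586E (5.41% and 4.05%, against 6.62% and 6.26% of all genes), and 3 were lower and 2 higher with S586A (2.03% and 1.35%, against 4.51% and 4.2%). Smarcc2 transcript was at 1117 to 1293 CPM with S586E and at 769 and 771 CPM with wild type at rest. After KCl it was at 1226 and 1348 CPM with S586A and at 750 to 1103 CPM with wild type. The part of this difference in level was not tested.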

How the data were processed

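RNA was measured in 24 libraries of mouse cortical neurons. Per the submitters' processing notes the authors used FastQC, cutadapt and kallisto, and deposited estimated counts and TPM per transcript; versions and the genome build are not given in the sources used here. Transcripts were matched to GENCODE M21 (99.2% of 142552) and summed per gene. The members and gene lists were chosen with earlier results of these data known. Named genes are the 15 members with the lowest ratio, the members called, up to 4 members per family and the genes at the limit; others (Flna, Slc16a6, Hic2, Plagl2, and examples from clusters, promoters, retained introns and signalling) and the 20% limit for retained introns were chosen after their values were seen.

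The DIV7 ratio used CPM of the library total and a pseudocount of 1. At DIV18, rounded counts of 20 libraries in 8 groups were fitted together with edgeR 4.0.16 (TMM scaling, filterByExpr, quasi-likelihood test, two-sided, Benjamini-Hochberg over 20940 genes, adjusted p under 0.05) in R 4.3.3, with 11 contrasts that share libraries. Alternatives were DESeq2 1.42.0, its size factors, no filter, length offsets, a replicate block, only the groups compared, and each library left out. The fit was tested on simulated data for the averaged KCl contrast. There 68% of genes changed by 1 on the log2 scale and 46% of those changed by 0.5 were called. P-values measure the spread between cultures of single embryos. Deposited TPM was used for the most abundant transcript and as an alternative scale. Same-numbered libraries had correlations of 0.106, 0.114 and 0.236 in wild-type addback under KCl, where the replicate block changed no member's call. Those of the KOvec KCl response were similar (0.128, 0.0689 and 0.238). Whether the numbers pair the samples was not settled, and the main fit was unpaired.

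Finger motifs were counted in the coding sequence by the spacing of their cysteine and histidine codons. Promoter motifs, searched on both strands, were the CRE as TGACGTCA and its contained core as TGACG, AP-1 as TGANTCA, the E-box as CACGTG, ETS as CCGGAAG, the CCAAT box by its name, the GC box as GGGCGG, the TATA box as TATAAA, E2F as TTTGGCGC and the longer elements of NRF1, ZNF143, YY1 and BANP. Marker lists covered neurons, astrocytes, progenitors, oligodendrocyte lineage, microglia and fibroblasts or vessels.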

Additional observations from a re-analysis of the deposited data

Results flagged for a closer look

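In 6 members the change after KCl went opposite ways at the ages compared: both KCl libraries lay below both resting libraries at DIV7, and at DIV18 every KCl library lay above every resting library within each of the NT, KOvec and KOwt cultures, as they did in 0.626% of all genes tested. The average DIV18 changes on the log2 scale were 0.54 for Miip, 0.53 for Rgs11, 0.43 for Alkbh4, 0.39 for Rab34, 0.29 for Ankzf1 and 0.25 for Ccnt2, against DIV7 ratios of -1.78, -0.98, -0.99, -1.08, -1.0 and -1.15. By edgeR's adjusted p Rab34 passed (0.0255), while Rgs11 (0.0509), Ccnt2 (0.0604), Alkbh4 (0.0624), Miip (0.118) and Ankzf1 (0.136) did not. The difference between the ages was not tested, since the DIV7 libraries chose the members and the ages also differ in RNA selection. Miip, Rgs11, Ankzf1 and Rab34 belong to the 26 members with at least 20% of resting counts in retained-intron transcripts. No member lay below in the same way in all 3 DIV18 cultures (0.363% of all genes did).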

How the results depend on the processing

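Counts of members called moved with the settings, always on small numbers. For the average KCl response (2 members) no filter on low counts gave 7, length offsets 0, a fit of only the groups compared 0 and DESeq2 6, and leaving out 1 library gave 0 to 3. For KOvec (0) no filter gave 4, DESeq2 2 and leaving out a library 0 to 1. No filter gave 1 for KOwt, 1 for wild-type addback at rest, 2 for S586E (DESeq2 1), 1 for S586A and 1 for the response difference, all at 0 otherwise. For Smarcc2 loss at rest (3) no filter gave 7, only the groups compared 0, DESeq2 5 and leaving out a library 0 to 3. For loss under KCl (1) these gave 4, 3, 3 and 0 to 1. The replicate block gave 3 for the average KCl response, 4 for loss at rest and 2 for loss under KCl. Whether the library numbers pair the samples was not settled. In 137 of 137 alternatives the members' median change moved from its main value by less than the spread between libraries (SD 0.0726). Most medians were smaller than that SD, so this check could hardly fail. With 1 library left out, the NT median went from 0.0118 to -0.0061 and that of wild-type addback at rest from -0.0157 to 0.0052. That of S586A went from -0.0212 to 0.0396 and that of the response difference from 0.0222 to -0.0141. With another setting that of S586E went from -0.0352 to 0.0093. The other contrasts kept their sign. Median mRNA length was 3739.5 bases by the longest and 3443.5 by the most abundant transcript. The rule kept 99 to 147 of the 148 members under another pseudocount, CPM minimum, TPM, TMM or 1 library fewer. Whether depth set the width of single members' intervals was not tested.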
